A study of Rattus norvegicus with 2 samples.

Results

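Zinc transporter and metallothionein genes were examined in rat OPCs, or oligodendrocyte precursor cells, the cells from which myelin-forming oligodendrocytes arise. The group was taken by gene symbol and held every row of the gene table named Slc30a or Slc39a with a number, together with Tmem163, Mt1, Mt1m, Mt2A, Mt3 and Mtf1. This gave 28 of the 17455 genes: 9 Slc30a genes, 13 Slc39a genes, Tmem163, 4 metallothionein genes and Mtf1. The study compared OPCs transfected with a Slit1 construct, called Slit1 here, against OPCs transfected with the vector, called vector here. Both used a Lonza kit, and both groups were labelled wild type. There was 1 library in each group, so every difference below lacks a replicate check and no p-value was computed. The sources used here do not give the age of the animals, the promoter of the construct, the number of cultures pooled or the time of harvest.

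Zinc is carried across membranes by 2 families of transporters that mostly work in opposite directions. Most proteins of the Slc30a family (ZnT) move zinc out of the cytosol, either across the plasma membrane or into organelles. Proteins of the Slc39a family (ZIP) move it into the cytosol. Metallothioneins are small cysteine-rich proteins that bind zinc and copper, and MTF1 is the zinc-sensing transcription factor that drives metallothionein genes and Slc30a1 through metal response elements. TMEM163 is a zinc efflux transporter, and variants of the human gene cause a hypomyelinating leukodystrophy. Zinc is also bound by myelin basic protein and is abundant in myelin.

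Levels are given in TPM, the authors' unit of transcript abundance scaled by gene length, and differences as log2(TPM + 1) in Slit1 minus vector. Of the 28 genes, 26 had a mean of at least 1 TPM over both libraries and entered the counts below. A gene was called when it differed at least 1.5-fold on the log2(TPM + 1) scale. Only Tmem163 was called higher in Slit1, 1 of 26, where 3.72% of all 13175 genes with that mean were called higher. Lower in Slit1 were Slc30a1, Mt1 and Mt1m, 3 of 26, where 4.83% of all genes were called lower. With the median gene set to 0, the same members were called and these shares were 4.43% higher and 3.72% lower. The other 22 lay between. The median log2 difference was -0.18 over the 26 members, and -0.05 over all 13175 genes. By any amount, 6 members were higher and 20 lower, while 43.7% of all genes were higher and 56.0% lower.

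The labels were checked first. Slit1 itself measured 229.7 TPM in Slit1 and 1.70 TPM in vector. Total estimated counts were 18998770 in Slit1 and 18817462 in vector, of which the 28 genes held 44615 in Slit1 and 46893 in vector. The OPC label was compared with markers. The 6 measured precursor markers summed to 1822 TPM in Slit1 and 1937 TPM in vector, and the members differed from one another. Pdgfra, the receptor that marks OPCs, measured 41.4 TPM in Slit1 and 40.2 TPM in vector. Sox10, a lineage transcription factor, was called higher with 218 TPM in Slit1 and 71.4 TPM in vector, and Ptprz1, a receptor phosphatase gene, measured 688.2 TPM in Slit1 and 913.6 TPM in vector. The 8 astrocyte markers had a larger sum, 9553 TPM in Slit1 and 8643 TPM in vector. Most of it was the filament gene Gfap, with 6130 TPM in Slit1 and 4694 TPM in vector. Slc1a3 (1417 TPM in Slit1, 1610 TPM in vector) and S100b (1092 TPM in Slit1, 1171 TPM in vector) came next. Aldh1l1 was scarcer, at 54.1 TPM in Slit1 and 52.5 TPM in vector, and Agt was the scarcest of the list. The lists hold different genes, so their sums do not rank the cell types. The levels given here are of the whole sample and cannot be assigned to OPCs alone. The 10 markers of newly formed and myelinating oligodendrocytes summed to 5010 TPM in Slit1 and 1292 TPM in vector, and 10 of 10 were called higher. Of all 13175 genes, 3.72% were called higher and 4.83% lower. The 8 neuronal markers summed to 64.9 TPM in Slit1 and 56.7 TPM in vector, with Slc17a6 and Slc17a7 at 0 in Slit1. Most of this sum was Tubb3, with 46.5 TPM in Slit1 and 33.6 TPM in vector. Of the 6 neuronal markers with a mean of at least 1 TPM, 2 were higher and 4 lower by any amount. Gad2 was called lower, with 1.91 TPM in Slit1 and 3.38 TPM in vector. The 5 measured microglial markers summed to 1.42 TPM in Slit1 and 1.11 TPM in vector, with Itgam at 0 in vector. The 5 endothelial markers summed to 2.83 TPM in Slit1 and 5.03 TPM in vector, with Cldn5 at 0 in vector, and the 4 measured fibroblast and pericyte markers to 21.8 TPM in Slit1 and 22.6 TPM in vector, with Dcn at 0 in vector. In a bulk sample, more or fewer cells of a type and more or less RNA per cell cannot be told apart.

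The sequences upstream of 5 members are shown because they hold, or lack, the letters that MTF1 is known to bind, and because the members differ in how they compared between the libraries. Each is the 250 bases before the annotated start of the gene, 5′ to 3′ on the strand of the gene, from RefSeq on build GRCr8; 23 of the 28 members were matched in that promoter table. Capitals mark the core of the metal response element, searched as TGCACNC and TGCGCNC on both strands (N is any base), so that a match on the opposite strand reads, for example, GAGTGCA.
Mt1 (chr19:10832976-10833225, minus strand): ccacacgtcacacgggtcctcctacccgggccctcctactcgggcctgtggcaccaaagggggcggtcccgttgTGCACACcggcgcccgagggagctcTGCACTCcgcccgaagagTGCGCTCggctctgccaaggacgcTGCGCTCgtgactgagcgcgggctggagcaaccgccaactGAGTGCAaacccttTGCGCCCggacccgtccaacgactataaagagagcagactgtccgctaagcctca
Mt2A (chr19:10838709-10838958, minus strand): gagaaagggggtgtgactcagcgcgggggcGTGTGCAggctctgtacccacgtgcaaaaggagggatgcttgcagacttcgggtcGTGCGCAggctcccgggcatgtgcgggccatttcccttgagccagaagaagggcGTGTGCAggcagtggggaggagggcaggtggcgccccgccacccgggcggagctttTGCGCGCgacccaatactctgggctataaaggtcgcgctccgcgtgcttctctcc
Mt3 (chr19:10856081-10856330, minus strand): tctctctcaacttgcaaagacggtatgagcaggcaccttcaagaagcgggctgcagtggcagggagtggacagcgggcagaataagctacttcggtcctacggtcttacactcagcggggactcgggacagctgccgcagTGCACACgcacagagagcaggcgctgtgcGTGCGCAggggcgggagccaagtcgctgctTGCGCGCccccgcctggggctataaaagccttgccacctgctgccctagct
Slc30a1 (chr13:106021769-106022018, plus strand): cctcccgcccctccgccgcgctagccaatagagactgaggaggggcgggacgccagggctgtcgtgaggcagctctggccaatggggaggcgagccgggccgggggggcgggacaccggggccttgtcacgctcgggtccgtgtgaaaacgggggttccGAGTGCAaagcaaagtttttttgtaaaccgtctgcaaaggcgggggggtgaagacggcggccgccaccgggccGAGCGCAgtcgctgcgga
Tmem163 (chr13:41693939-41694188, minus strand): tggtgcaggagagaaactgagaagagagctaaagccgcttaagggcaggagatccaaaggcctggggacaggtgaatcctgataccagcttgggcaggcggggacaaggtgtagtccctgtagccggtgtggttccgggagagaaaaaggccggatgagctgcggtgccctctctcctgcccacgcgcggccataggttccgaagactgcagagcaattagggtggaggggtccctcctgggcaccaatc
The Mt1 window held 6 matches, lying between 55 and 176 bases before the start. Mt2A held 4, between 55 and 220 bases before the start, Mt3 held 3, and Slc30a1 held 2, at 91 and 18 bases before the start. No 2 matches overlapped in these windows. Tmem163 held 0 in this window. Of all 27457 promoters of the table, 21.2% held at least 1 match and 342 promoters held 3 or more. Of the 10745 promoters whose genes averaged 1 TPM or more, 31.5% held at least 1 match and 250 held 3 or more. Among the 22 such members with a promoter in the table, 11 held a match. Besides the 4 genes shown, these were Slc39a7 with 4, Slc39a13, Slc30a5, Slc39a11, Slc30a4 and Mtf1 with 2 each, and Slc39a1 with 1. Some of the matches in Slc39a7, Slc30a5 and Slc39a11 overlapped. Of the 11 with a match, Slc39a7, Slc39a13 and Mt3 had TPM ratios of Slit1 over vector above 1 and the others below 1. The ratio of Mt3 was 1.01, and its interval held 1. Members with 0 matches also lay on both sides, among them Tmem163 and Slc39a5 above 1 and Slc39a6, Slc39a9 and Slc39a10 below 1. The letters alone do not show that a factor binds there, and their part in these levels was not tested.

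**Figure D1:**
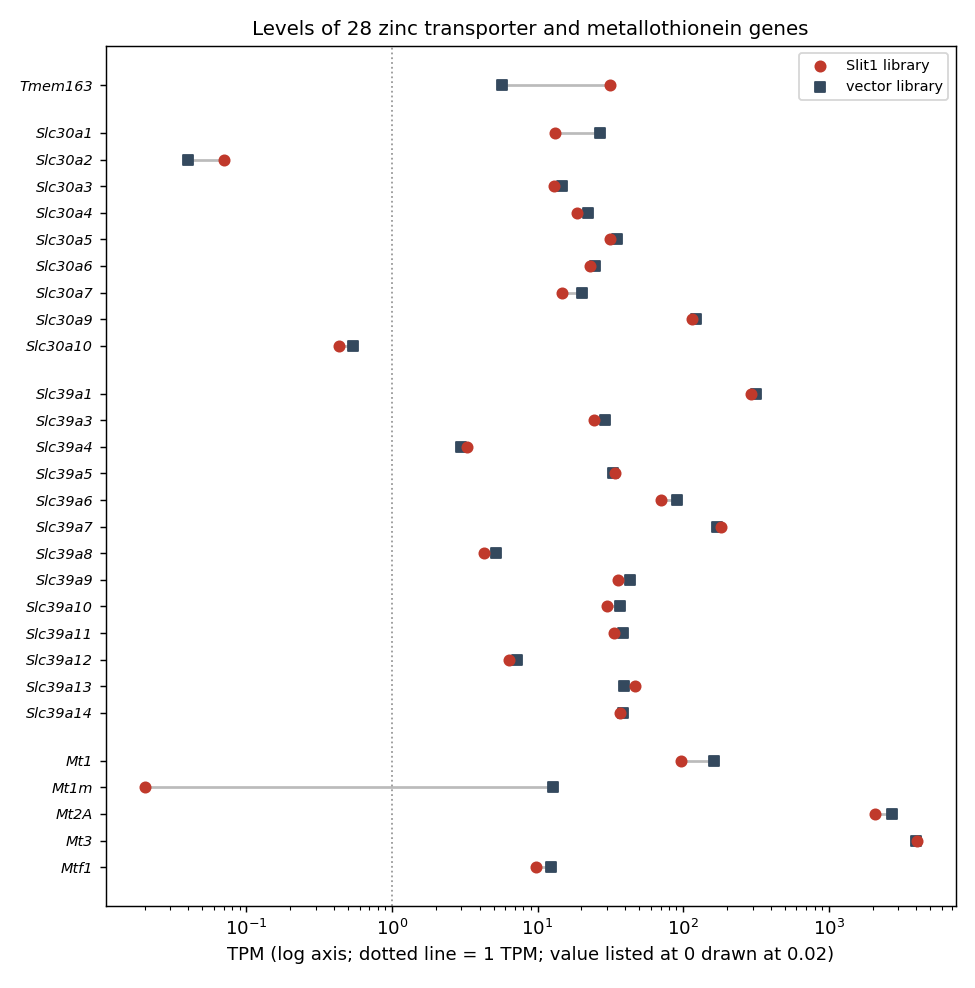
TPM of each of the 28 genes on a log axis, in the Slit1 library (circles) and the vector library (squares), 1 library each, ordered by family; Mt1m, listed at 0 in Slit1, is drawn at 0.02. Mt3 and Mt2A lie highest in both libraries, and the pairs of Tmem163, Slc30a1, Mt1 and Mt1m are spread widest among the genes above 1 TPM.

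Tmem163 stood apart from the other zinc carriers. It measured 31.5 TPM in Slit1 (518 estimated counts) and 5.73 TPM in vector (90.0 counts). The ratio was 5.50, with a 95% counting interval of 4.39 to 6.96, and the log2 difference of 2.27 was the 14th highest of the 13175 genes. By level Tmem163 was 13th of the 28 members in Slit1 and 24th in vector. In Slit1 its level could not be separated by counting error from those of its neighbours in the order, Slc39a11 (33.6 TPM) and Slc30a5 (31.5 TPM). The same held in vector, where its neighbours were Slc39a12 (7.26 TPM) and Slc39a8 (5.20 TPM). In the same pair of libraries Mbp, the myelin basic protein gene, measured 1704 TPM in Slit1 and 220.5 TPM in vector, and Enpp6, which encodes a choline phosphodiesterase, measured 81.2 TPM in Slit1 and 15.0 TPM in vector. The part of these cells in the Tmem163 level was not tested.

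Among the Slc30a genes the largest difference was in Slc30a1. It encodes ZnT1, the exporter of zinc across the plasma membrane. Slc30a1 measured 13.3 TPM in Slit1 (306 counts) and 26.8 TPM in vector (593 counts), a ratio of 0.496 with an interval of 0.431 to 0.570. Its log2 difference of -0.96 was the 108th lowest of the 13175 genes, and by level it was 20th of the 28 members in Slit1 and 16th in vector. The other gene whose product is placed at the plasma membrane, Slc30a10, which in humans carries mainly manganese, was scarce at 0.43 TPM in Slit1 (12.2 counts) and 0.54 TPM in vector (10.0 counts). Its count was the higher one in Slit1 while its TPM was the lower one, and the interval of the TPM ratio, 0.311 to 2.03, held 1.

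The ZnT genes of the early secretory pathway, whose products load zinc into enzymes in the Golgi, each had a TPM ratio below 1. Slc30a7 measured 14.8 TPM in Slit1 and 20.4 TPM in vector, a ratio of 0.726 with an interval of 0.617 to 0.855. Slc30a5 measured 31.5 TPM in Slit1 and 35.2 TPM in vector (ratio 0.893, interval 0.811 to 0.983). Its partner Slc30a6 measured 22.9 TPM in Slit1 and 24.9 TPM in vector (ratio 0.919), with an interval that held 1 (0.781 to 1.08). For counts relative to library totals, the interval of Slc30a5 also held 1 (0.863 to 1.05). None of these 3 genes reached 1.5-fold, where 3.72% of all genes were called higher and 4.83% lower. Summed over the 3 genes, the level was 69.2 TPM in Slit1 and 80.5 TPM in vector.

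Of the vesicular carriers, Slc30a4 (ZnT4) measured 18.8 TPM in Slit1 and 22.2 TPM in vector, a ratio of 0.846 with an interval of 0.773 to 0.926. Slc30a3, which fills synaptic vesicles with zinc in neurons, measured 12.9 TPM in Slit1 (209 counts) and 14.7 TPM in vector (223 counts), and its interval held 1. Slc30a2 was near the limit of detection, with 2 counts in Slit1 and 0.98 counts in vector, and no ratio was computed. Slc30a9, which encodes a mitochondrial zinc exporter in human cells, was the most abundant of the family at 115.7 TPM in Slit1 and 123.3 TPM in vector, and it made up 50.2% of the summed Slc30a level in Slit1 and 46.0% in vector. Its ratio of 0.938 had an interval of 0.891 to 0.988. All 7 Slc30a genes above the limit of 1 TPM were lower in Slit1 by some amount, 1 of them by 1.5-fold, where 56.0% of all genes were lower by any amount and 4.83% by 1.5-fold. Their median log2 difference was -0.18, against -0.05 over all genes. Without Slc30a1, the family summed to 217 TPM in Slit1 and 241.3 TPM in vector.

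**Figure D2:**
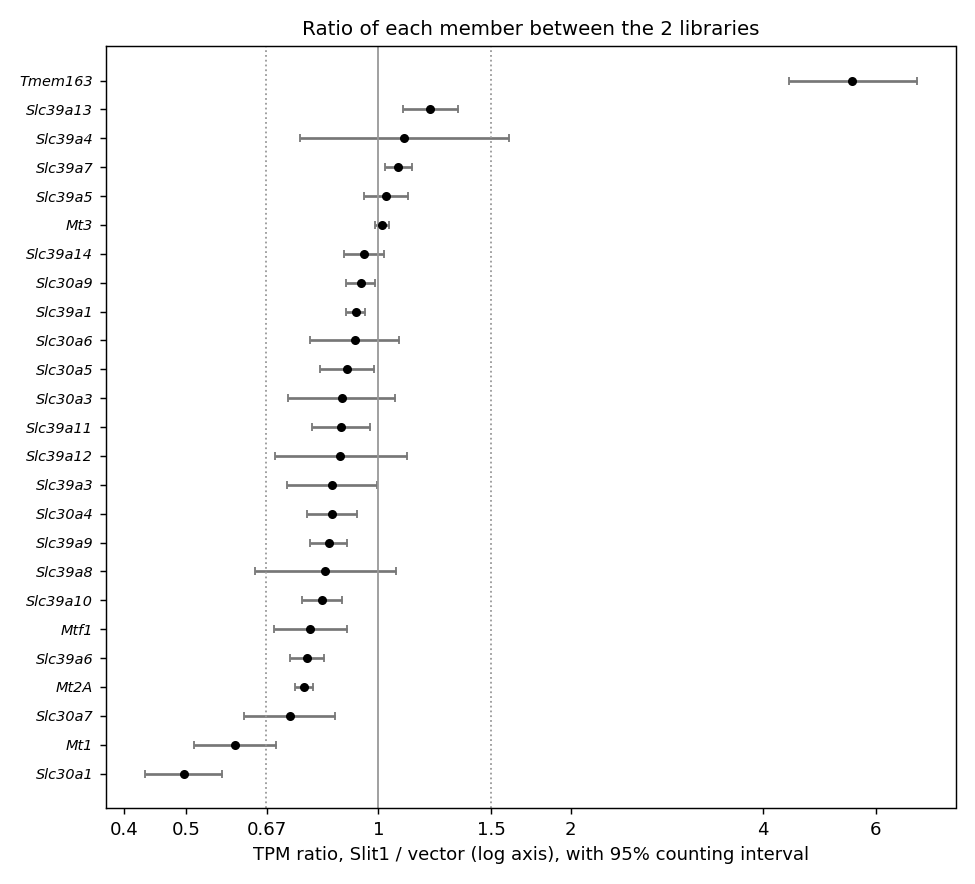
TPM ratio of Slit1 over vector for the 25 members above the limit with counts in both libraries, on a log axis, with 95% counting intervals from 1 library per group; the solid line is equality and the dotted lines are 1.5-fold either way. Tmem163 lies at 5.50 and Slc30a1 at 0.496, and the intervals of the ZIP genes lie between 0.67 and 1.5 except those of Slc39a4 and Slc39a8.

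None of the Slc39a genes reached 1.5-fold. Of the 13 measured, 0 were called higher and 0 lower, where 3.72% of all genes were called higher and 4.83% lower. With shares this small, few calls would fall among any 13 genes. Log2 differences ran from -0.37 in Slc39a6 to 0.26 in Slc39a13, with a median of -0.17, against -0.05 over all genes. The summed ZIP level was 799.8 TPM in Slit1 and 850.4 TPM in vector. The ratio of summed ZIP to summed ZnT levels was 3.47 in Slit1 and 3.17 in vector. The ZnT sum includes Slc30a9 and Slc30a10, so this ratio does not compare zinc import with export. Slc39a1, a plasma membrane importer (ZIP1), was the most abundant at 291.6 TPM in Slit1 and 316.5 TPM in vector. Slc39a7, which releases zinc from the endoplasmic reticulum, followed with 182.8 TPM in Slit1 and 170.2 TPM in vector. Together Slc39a1 and Slc39a7 held 59.3% of the summed ZIP level in Slit1 and 57.2% in vector.

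Within the LIV-1 subfamily of ZIP transporters the genes lay on both sides of 1. Slc39a13, a carrier of the secretory pathway, measured 47.0 TPM in Slit1 (868 counts) and 39.0 TPM in vector (723 counts), a ratio of 1.21 with an interval of 1.09 to 1.33. Slc39a7 had a ratio of 1.07 and an interval of 1.02 to 1.13. On the other side, Slc39a6 and Slc39a10, whose products form a heteromer in mouse cells, had ratios of 0.773 (interval 0.727 to 0.822) and 0.815 (interval 0.758 to 0.876). Slc39a6 measured 70.1 TPM in Slit1 and 90.7 TPM in vector, and Slc39a10 measured 29.9 TPM in Slit1 and 36.7 TPM in vector. These 4 intervals stayed on the same side of 1 in CPM, the estimated counts relative to library totals. In TPM, 22.3% of all 13175 genes had an interval above 1 and 33.5% an interval below 1. Of the 26 members, 3 had an interval above 1 and 14 an interval below 1, with Mt1m in neither number because its ratio has no interval. In CPM these numbers were 4 and 10, where 26.4% and 28.4% of all genes had such intervals: Mt3 was added above 1, and the intervals of Slc30a9, Slc30a5, Slc39a11 and Slc39a3 held 1.

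The intervals of the other LIV-1 genes held 1. Slc39a14, which also carries iron and manganese, measured 36.6 TPM in Slit1 and 38.5 TPM in vector (ratio 0.949, interval 0.885 to 1.02). Slc39a8, a carrier of zinc and manganese, measured 4.29 TPM in Slit1 and 5.20 TPM in vector, Slc39a12, a brain-enriched ZIP, measured 6.33 TPM in Slit1 and 7.26 TPM in vector, and Slc39a4, the intestinal importer, measured 3.28 TPM in Slit1 and 2.99 TPM in vector. Slc39a5 measured 33.8 TPM in Slit1 and 32.9 TPM in vector. Its gene overlaps Ankrd52 on the opposite strand, and Slc39a7 overlaps Rxrb in the same way. The sources used here do not say whether strand was used in counting, so reads from a shared stretch may be counted for either gene. Overlaps were taken from whole gene spans, and the exon sequence shared was not measured. Ankrd52 had 515 counts in Slit1 and 717.6 in vector, and Rxrb had 1070 in Slit1 and 925.1 in vector. Slc39a11 also overlaps Cog1, with 1111 counts in Slit1 and 1048 in vector, and Sstr2, with 9 in Slit1 and 5 in vector. Slc39a8 overlaps a protein-coding gene on its own strand, not analysed here. Outside LIV-1 the remaining ZIP genes were slightly lower in Slit1. Slc39a9, whose product sits in the Golgi, measured 35.9 TPM in Slit1 and 43.0 TPM in vector (ratio 0.836, interval 0.781 to 0.894). Slc39a3, a plasma membrane importer, measured 24.5 TPM in Slit1 and 28.9 TPM in vector (ratio 0.846, interval 0.720 to 0.995). Slc39a11, of the gufA subfamily, measured 33.6 TPM in Slit1 and 38.4 TPM in vector (ratio 0.874, interval 0.788 to 0.971).

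**Figure D3:**
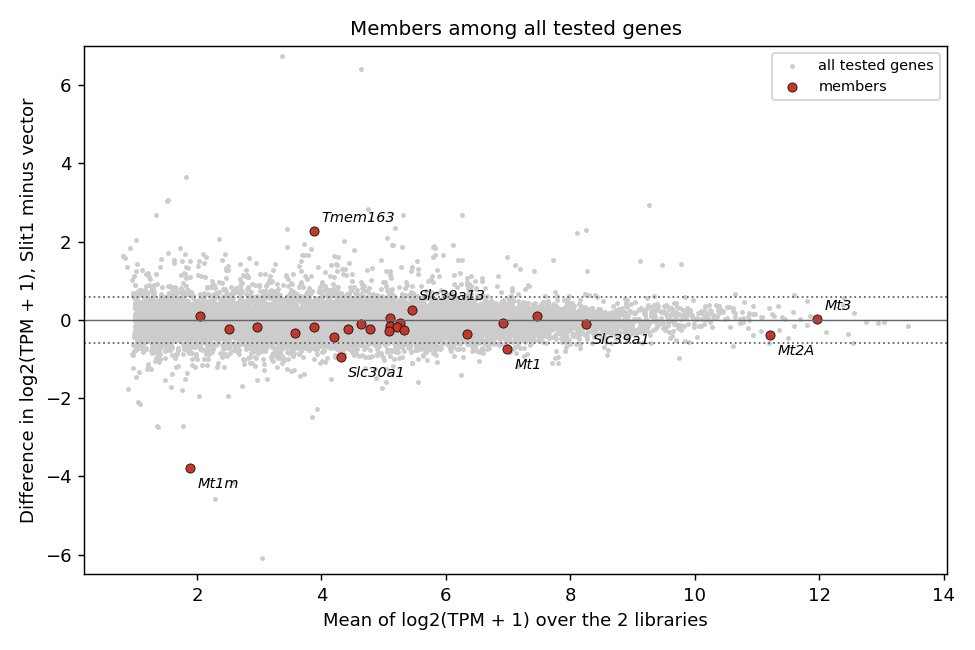
Difference in log2(TPM + 1), Slit1 minus vector, against the mean log2(TPM + 1) of both libraries, for 13175 genes (grey) and the 26 members among them (red); dotted lines mark 1.5-fold. Tmem163 lies above the upper line, Slc30a1, Mt1 and Mt1m below the lower one, and the 22 other members between the lines.

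The metallothionein genes Mt3 and Mt2A were the most abundant members in both libraries, and Mt1 was 6th of the 28 in Slit1 and 5th in vector. Mt1 and Mt2A were lower in Slit1, and Mt3 was nearly level. The 4 genes summed to 6203 TPM in Slit1 and 6866 TPM in vector, 85.3% of the summed level of the 28 members in Slit1 and 85.8% in vector. Mt3, the brain isoform, measured 4032 TPM in Slit1 (11865 counts) and 3977 TPM in vector (11245 counts). Its ratio was 1.01 with an interval of 0.988 to 1.04. Mt2A measured 2074 TPM in Slit1 (6235 counts) and 2713 TPM in vector (7835 counts), a ratio of 0.764 with an interval of 0.739 to 0.790, short of 1.5-fold. Mt1 measured 97.0 TPM in Slit1 (297 counts) and 162.6 TPM in vector (478 counts), a ratio of 0.597 with an interval of 0.515 to 0.691. Mt1 and Mt2A, the isoforms that metals and stress induce, differed by more than counting error. For Mt3 this depended on the scale: the interval held 1 in TPM, while the CPM ratio was 1.05 with an interval of 1.02 to 1.07.

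Within the metallothioneins, Mt3 held 65.0% of the summed metallothionein level in Slit1 and 57.9% in vector, and the ratio of Mt3 to Mt2A was 1.94 in Slit1 and 1.47 in vector. Without Mt3 the metallothioneins summed to 2171 TPM in Slit1 and 2889 TPM in vector, a ratio of 0.752. Mt1m, annotated as a pseudogene, had 0 counts in Slit1 and 36.3 in vector. With Slit1 set at a floor of 3 counts, this was 12.2-fold lower relative to the library totals. That figure leaves out the counting error in vector. Reads of similar copies can be divided between genes, and the sequence of Mt1m was not compared with that of Mt1 here. The value of Mt1m is therefore uncertain. Counting Mt1 and Mt1m together gave 297 counts in Slit1 and 514 in vector, a TPM ratio of 0.553 with an interval of 0.479 to 0.640. Mtf1 measured 9.70 TPM in Slit1 (394 counts) and 12.4 TPM in vector (537 counts), a ratio of 0.783 with an interval of 0.686 to 0.894.

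Metallothioneins are abundant in astrocytes, whose markers were measured beside them. Of the 8 astrocyte markers, 0 were called higher and 2 lower, where 3.72% of all genes were called higher and 4.83% lower. The 2 were the glutamate transporter gene Slc1a2 (94.1 TPM in Slit1, 215.4 TPM in vector) and the connexin gene Gja1 (295.7 TPM in Slit1, 506.2 TPM in vector). Agt, which encodes angiotensinogen, measured 8.29 TPM in Slit1 and 5.40 TPM in vector. Its TPM ratio was 1.54 (interval 1.17 to 2.03), but it fell short of 1.5-fold on the log2(TPM + 1) scale. Gfap had a ratio of 1.31, the water channel gene Aqp4 a ratio of 1.19 and Slc1a3 a ratio of 0.880. The part of astrocytes in the metallothionein, Slc30a1 and Slc39a12 levels was not tested.

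Other genes of metal handling were described by 4 lists. Of all genes, 3.72% were called higher and 4.83% lower. Of 5 measured MTF1 targets outside the group, 0 were called in either direction, and the median log2 difference was 0.20. Gclc, a subunit of the enzyme that starts glutathione synthesis, measured 126.5 TPM in Slit1 and 188.3 TPM in vector (ratio 0.672, interval 0.641 to 0.703). The selenoprotein genes Selenow (ratio 1.36, interval 1.29 to 1.44) and Selenoh (ratio 1.24, interval 1.12 to 1.38) lay on the other side. Csrp1 had a ratio of 1.15 (interval 1.12 to 1.19), and Ndrg1 had one of 0.883 with an interval that held 1 (0.579 to 1.34). Genes listed as MTF1 targets lay on both sides, with Slc30a1, Mt1, Mt2A and Gclc below 1 and Selenow, Selenoh and Csrp1 above 1. The part of MTF1 in these levels was not tested. Of 5 measured other routes for zinc and metals, 0 were called, with a median of -0.20. Among them, Cbwd1, a zinc chaperone, had a ratio of 0.713 (interval 0.588 to 0.865), Trpm7, a channel permeable to zinc and magnesium, 0.772 (interval 0.710 to 0.839) and Slc41a1, a magnesium transporter, 0.869.

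Copper genes were measured because metallothioneins also bind copper. Of 10, 0 were called in either direction, where 3.72% of all genes were called higher and 4.83% lower. The median was -0.11, against -0.05 over all genes. Atox1, the cytosolic copper chaperone, had a ratio of 1.38 (interval 1.22 to 1.57), while Slc31a1, the copper importer, had 0.760 (interval 0.710 to 0.812) and Sco1, an assembly factor of cytochrome oxidase, had 0.729. Of the 5 measured zinc enzymes of the secretory pathway, 4 were above the limit of 1 TPM, and 2 of these were called higher and 0 lower. They were Enpp6 (ratio 5.41, interval 4.95 to 5.91), also a marker of newly formed oligodendrocytes, and Enpp2, which encodes autotaxin (50.5 TPM in Slit1, 32.8 TPM in vector, ratio 1.54, interval 1.41 to 1.67). Enpp1 rested on 23 counts in Slit1 and 31.0 in vector, and its interval held 1.

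**Figure D4:**
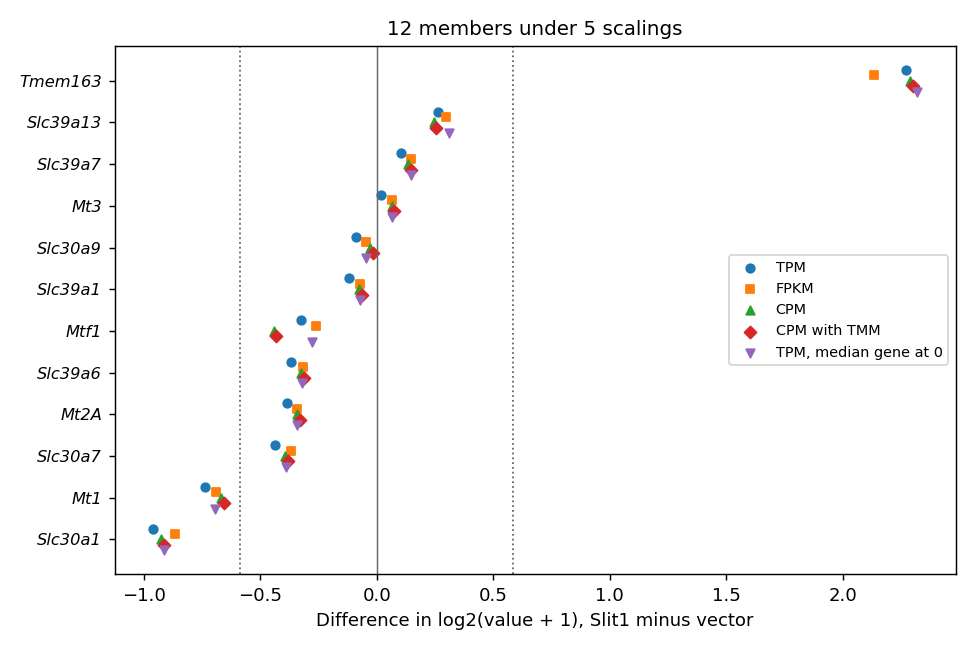
Difference in log2(value + 1), Slit1 minus vector, of 12 members under 5 scalings of the same 2 libraries; the solid line is 0 and the dotted lines are 1.5-fold. Under each scaling shown Tmem163 lies above the upper line, Slc30a1 and Mt1 lie below the lower line, and Mt3 lies between 0 and 0.08.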

How the data were processed

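Total RNA was extracted with a Promega kit and made into Illumina libraries, per the labels' protocols. The authors deposited 1 table with FPKM, TPM and estimated read counts for each gene and library, per the file headers. The deposited TPM values sum to 1000000 per library, the deposited FPKM values to 473673 in Slit1 and 459452 in vector, and the deposited estimated counts to 18998770 in Slit1 and 18817462 in vector. Per the submitters' processing notes the build was mRatBN7.2; the aligner, counter, annotation and filters were not given in the sources used here. RefSeq's GRCr8 table held 98.6% of the gene numbers and was used for gene types, overlaps and promoter sequences.

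From these values the difference of log2(TPM + 1) was computed for the 13175 genes that averaged 1 TPM or more. Ratios of TPM carry exact (Clopper-Pearson) 95% intervals for 2 Poisson counts, from estimated counts rounded to whole numbers. Intervals and the floor of 3 counts cover counting error only, not the spread between cultures. Members, lists and limits were chosen with earlier results of these data known. Every member is named, and so are all 5 measured MTF1 targets outside the group. From each of the other lists of metal genes up to 3 genes with the largest difference are named. Marker lists are given by their sums, and the markers named from them were chosen after their values were seen. Intervals of CPM ratios were added after seeing the data. Protein sequences were not used here. TMM factors came from edgeR 4.0.16; other steps used Python 3.11.15, scipy 1.17.1 and pandas 2.3.3. The calculation was tested on simulated data. The alternatives were pseudocounts of 0.1 and 5, no floor or a floor of 5 TPM, FPKM, CPM with and without TMM factors, centring on the median gene, a looser limit of 0.32 on the log2 scale and a stricter one of 2-fold, intervals wholly on one side of 1, and omission of pseudogenes.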

Additional observations from a re-analysis of the deposited data

How the results depend on the processing

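No paired analysis was possible because each group has 1 library, and for the same reason no library could be left out. Tmem163 was the only member called higher under each of the 12 alternatives. Slc30a1 and Mt1 were called lower under 11 of them, the exception being a fold limit of 2, at which 1 member, Mt1m, was lower. At a looser limit of 0.32 on the log2 scale, 7 members were lower, where 17.9% of all genes were, and 1 was higher, where 10.7% were. Mt1m left the count in CPM with or without TMM factors, where it was below the floor, leaving 2. It also left with intervals, where none was computed for it, and without pseudogenes. The median of the members ran from -0.19 to -0.09, and that of all genes from -0.05 to 0.00. Signs differed between scalings in 1 member, Slc30a10. Of 220 member differences under the alternatives, 206 stayed within their counting interval. The other 14 moved by more or, as for Mt1m, had no computed interval, and 0 changed sign among called genes. Changing the floor leaves a difference as it was, so those entries among the 220 were bound to keep their value. Neither the floors nor the omission of pseudogenes could change the calls of Tmem163, Slc30a1 and Mt1. In the 4 other lists, 2 genes were called higher and 0 lower; 1 was higher with a pseudocount of 5 or a fold limit of 2, and 5 were higher and 6 lower at the looser limit. Depth limits Slc30a2, Slc30a10 and Mt1m, with at most 36.3 counts.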
